A study of Homo sapiens with 12 samples.

Results

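Olfactory receptor guides are the sgRNAs of the knockout library that cut genes for the smell receptors of the nose. They were found by name, as every row of the count table whose gene symbol is OR followed by a family number, a subfamily letter and a member number. The rule took 2256 guides of 376 genes, out of 123411 rows in the whole table. Every one of the 376 genes had exactly 6 sgRNAs, 1128 guides lying in half-library A and 1128 in half-library B, so receptor genes could not be split by their number of sgRNAs. They were set beside the library's control guides, which have no target in the genome and fill 2000 rows.

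Olfactory receptors are seven-helix receptors coupled to G proteins, and each sensory neuron of the nose typically uses a single receptor gene. They form the largest gene family of the human genome and sit in clusters on many chromosomes, with close copies and pseudogenes beside them. In pooled knockout screens such genes serve as a comparison that control guides cannot give, because their guides still make Cas9 cut DNA while the lost protein is usually not needed by a cultured epithelial cell. Whether the receptor genes were silent in these cells was not measured here.

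The screen was run in N87 and OE19 cells, 2 established HER2-amplified cell lines, of stomach and of the gastro-oesophageal junction. All cells carried the GeCKO v2 library in lentiCRISPR v2, which expresses Cas9 and 1 guide from the same vector, and had been kept in puromycin for 7 days. Cells were collected after a further 14 days with lapatinib, a HER2 and EGFR kinase inhibitor, at 0.5 µM for N87 and 1.0 µM for OE19, after 14 days with vehicle, or at baseline before treatment. Each of the 6 conditions had 2 libraries from separate infections, so every test below compares 2 libraries with 2.

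The receptor genes lie on 18 chromosomes. Of the 376, 373 were placed on GRCh37 with the GENCODE annotation, 162 of them on chromosome 11 and 58 on chromosome 1. The 52 class I receptors, the fish-like families 51 to 56, were all on chromosome 11, and the other 324 genes are class II. Since neighbouring receptor genes are often near-copies, a guide for one can cut several. The guide sequences were not in the file, so candidate Cas9 sites (20 bases followed by NGG) were read from the coding sequence of each receptor and matched exactly against the whole genome. A receptor had a median of 115.0 such sites, and its typical site was the median over them. The typical site occurred once in 289 genes, more than once and up to 2 times in 60, 3 to 4 times in 20, and 9 times in 4 genes, OR4F3, OR4F16, OR4F21 and OR4F29. A few candidate sites are printed to show what such matches look like, with the NGG motif in capitals. They are not guides of the library.
OR4F17: taactgcagaggctatttccTGG
OR11H12: acaaaagcaaagctggaattTGG
OR52E2: aagagtacctaatacatacgAGG
The OR4F17 site occurs at chr19:110626-110648 on the plus strand in OR4F17 itself, at chr15:102463293-102463315 on the minus strand in OR4F4, and at chr1:69038-69060 on the plus strand in OR4F5. The OR11H12 site has 4 matches, at chr14:19377642-19377664 in OR11H12, chr14:19807345-19807367 in the pseudogene OR11H13P, chr14:20182005-20182027 in OR11H2 and chr22:16449734-16449756 in OR11H1. The OR52E2 site occurs once, at chr11:5079886-5079908 on the minus strand in the coding exon of OR52E2.

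Depth differed between libraries, from 13105805 to 33743599 counts, with the fewest in the 2 OE19 lapatinib libraries. The median receptor guide had 61 counts in OE19 lapatinib replicate 1 and 102 in replicate 2, against 138 to 264 in the other libraries. Receptor guides took 1.60% and 1.78% of the counts in OE19 cells with lapatinib, and between 1.93% and 2.05% in the other libraries. Each control guide is listed in both half-libraries, and its row in A and its row in B carried nearly the same level, with r between 0.9545 and 0.9967 across the 1000 guides of a library, against 0.01 to 0.06 when each A row was set against the next guide's B row. Control guides are therefore 1000 guides written as 2000 rows. Values called normalized below are counts scaled by the median of ratios over all guides, and levels are log2 of that value plus 1.

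Receptor guides started above the control guides. After growth with vehicle the lead over control rows was smaller in N87 and gone in OE19. At baseline the median receptor guide lay above the median control row in all 4 libraries, by 0.13 and 0.11 on the log2 scale in N87 and by 0.12 and 0.14 in OE19. After 14 days with vehicle the difference was 0.10 and 0.07 in N87. In OE19 with vehicle it was -0.07 and -0.01, so receptor guides no longer lay above the control rows. In cells with lapatinib the N87 libraries had differences of -0.33 and -0.21, and the OE19 libraries -0.07 and 0.06. Under a scaling over all guides, receptor guides had medians of 171 and 175 normalized counts in N87 cells with lapatinib, 167 and 169 with vehicle, and 162 and 164 at baseline. In OE19 their medians were 158 and 158 with lapatinib, 164 and 162 with vehicle, and 161 and 159 at baseline. Control rows in N87 had medians of 215 and 202 normalized counts with lapatinib, 156 and 162 with vehicle, and 148 and 152 at baseline. In OE19 the control medians were 165 and 152 with lapatinib, 172 and 163 with vehicle, and 148 and 144 at baseline.

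The first comparison asked what happened to guides against these genes over 2 weeks of growth without drug. For vehicle against baseline, receptor guides had a median fold change of 0.06 in both lines, on the log2 scale of normalized counts plus 1. Control rows had medians of 0.09 in N87 and 0.19 in OE19. The receptor median thus fell behind the control median by 0.04 in N87 and by 0.14 in OE19. Over the 4 pairings of a vehicle with a baseline library this difference lay between -0.07 and -0.03 in N87 and between -0.18 and -0.10 in OE19, below 0 in 4 of 4 pairings in each line. Each library enters 2 of these pairings, so they are not 4 independent comparisons. Vehicle and baseline libraries did not overlap in their receptor minus control difference. The exact two-sided permutation p was 0.333 in each line, which is the smallest that 2 libraries against 2 can give. For comparison, the median over all other gene-targeting guides differed from that of the controls by -0.08 in N87 and -0.18 in OE19. Guides against taste receptors, another family of sensory receptors, differed from control by -0.02 and -0.10, and guides against keratin-associated proteins of hair by -0.09 and -0.11. Guides against 87 genes with ribosomal protein symbols, most of them needed by every cell, differed by -0.51 and -0.60.

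Few single receptor guides passed the test over growth without drug. With edgeR's quasi-likelihood test and a threshold of 0.05 on the Benjamini-Hochberg adjusted p, 0 of 2252 tested receptor guides were higher and 0 were lower in N87, where 0.0% and 0.0399% of all tested guides were called. At an unadjusted p under 0.05 there were 114 receptor guides (5.06%), against 7.65% of all guides, and DESeq2 also called 0. In OE19, 0 of 2249 were higher, against 0.0114% of all guides, and 1 was lower, against 0.893%. An unadjusted p under 0.05 was found for 9.60% of receptor guides and 12.8% of all guides. Without OE19 vehicle replicate 2 the test called far more receptor guides each way, so that these low counts do not show that levels were unchanged. The share of all guides called in that fit is not given here. The guide called lower was HGLibB_34820 of OR2T27, with 145 and 134 normalized counts with vehicle and 247 and 273 at baseline, a log2 fold change of -0.91 ± 0.17 (SE) and an adjusted p of 0.0367. With the infection replicate as a block, 5 receptor guides were higher and 5 lower in N87, and 18 higher and 18 lower in OE19. The shares of all guides called with the block are not given here. The OR2T27 call was lost without either baseline library, with adjusted p of 0.153 and 0.615. A looser count gave the same order as the medians. Both vehicle libraries lay below both baseline libraries for 10.4% of tested receptor guides and 5.05% of control rows in N87, where this held for 17.8% of all guides. In OE19 they lay below for 15.2% of receptor guides and 3.30% of control rows, where this held for 21.8% of all guides. They lay above for 23.4% and 25.1% of receptor guides, against 18.9% and 22.6% of all guides, in N87 and OE19.

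A few receptor genes with repeated copies were called lower as genes. Ranked over all 20894 genes by rank aggregation, which asks whether the guides of a gene sit together at one end, 477 genes (2.28%) were lower and 12 (0.0574%) higher with vehicle in N87, and 308 (1.47%) lower and 0 (0.0%) higher in OE19. The receptors among the lower genes in N87 were OR4F4, OR4F21 and OR4F29, with adjusted p of 0.00440, 0.00858 and 0.00893. In OE19 they were OR4F17 and OR4F4, with adjusted p of 0.00777 and 0.0265. No receptor gene was among the higher genes. With the infection replicate as a block, OR4F17 was called in N87 beside the other 3 genes, and alone in OE19. With DESeq2, OR4F21 and OR4F29 but not OR4F4 were called in N87, and OR4F17 alone in OE19. The calls depended on single libraries. In N87 none remained without vehicle replicate 2, only OR4F17 was called without vehicle replicate 1 only OR4F4 without baseline replicate 1, and OR4F17 and OR4F21 without baseline replicate 2. In OE19 none remained without vehicle replicate 1, and OR4F17 alone was called without each of the other 3 libraries.

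These receptors are subtelomeric near-copies of each other, carried close to the ends of several chromosomes. OR4F29 lies at chr1:367640-368634, OR4F16 at chr1:621096-622034, OR4F17 at chr19:107104-117102 and OR4F4 at chr15:102462245-102463316. The typical site of OR4F3, OR4F16, OR4F21 and OR4F29 had its 9 matches on 7 chromosomes. Their gene medians with vehicle against baseline, relative to the control median, were -0.51, -0.56, -0.67 and -0.70 in N87 and -0.81, -1.03, -0.98 and -1.06 in OE19. All 24 guide rows of the 4 genes lay below the control median in both lines. Of guides for receptors whose typical site occurs once, 57.2% in N87 and 70.6% in OE19 did. The 24 rows fall into 6 sets of nearly equal counts, described below, so they may not be separate guides. OR4F17, OR4F4 and OR4F5, whose typical site had 3 matches on 3 chromosomes, had medians of -0.56, -0.61 and -0.32 in N87 and -0.996, -0.84 and -0.44 in OE19.

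The other receptors, grouped by number of matches, showed no such step, though single genes among them fell in OE19. Relative to the control median, the 289 genes with a single match had a median guide fold of -0.03 in N87 and -0.13 in OE19, and the 60 genes with more than 1 and up to 2 matches had -0.03 and -0.14. The 20 genes with 3 to 4 matches, OR4F17, OR4F4 and OR4F5 included, had -0.09 and -0.22, and the 4 genes with 9 matches had -0.61 and -0.97. Repeated copies did not always go with loss. OR4K15, with 3 matches on chromosomes 14, 18 and 21, had gene medians of -0.16 in N87 and 0.10 in OE19, while OR11H12, whose site is printed above, had -0.08 and -0.52. OR11H2 and OR11H1, which share that site, had -0.11 and -0.26 in N87 and -0.35 and -0.25 in OE19. All 6 guides of each of these OR11H genes lay below the control median in OE19. OR2M7, with 3 matches on chromosome 1, had -0.04 and 0.06. The lowest gene median in both lines was that of OR4F29, and the highest was that of OR52E2, at 0.24 and 0.20.

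Many rows of these OR4F genes carried nearly the same counts. The 24 rows of OR4F3, OR4F16, OR4F21 and OR4F29 fell into 6 sets of 4, and within a set the counts of the rows agreed in all 12 libraries to nearly sampling noise, with a mean chi-square per library of at most 2.36 where counting error alone gives 1. Each set held 1 row of each of the 4 genes. The 18 rows of OR4F4, OR4F5 and OR4F17 fell into 9 sets, of which 3 held a row of each gene, 3 held a row of OR4F17 and a row of OR4F4, and 3 were single OR4F5 rows that matched no other. Whether the rows of a set share reads was not tested, since the guide sequences were not in the file. If they do, the gene calls for OR4F21 and OR4F29 are not separate calls, and neither are those for OR4F17 and OR4F4.

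Summed within a set, the same 5 of the 6 sets were lower with vehicle than at baseline in both libraries of both lines. Of all single guides, 17.8% in N87 and 21.8% in OE19 were. The clearest loss was in the set of HGLibA_42279, which had 69.5 and 36.7 normalized counts with vehicle and 119 and 97.7 at baseline in N87, and 22.9 and 27.2 with vehicle and 80.1 and 105 at baseline in OE19. The set of HGLibA_42280 had 239 and 200 with vehicle and 392 and 325 at baseline in N87, and 130 and 151 with vehicle against 267 and 327 at baseline in OE19. In each of these sets the vehicle libraries did not overlap with the baseline libraries. The sixth set, of HGLibB_34947, was flat, with 997 and 1044 normalized counts with vehicle and 1129 and 998 at baseline in N87, and 1026 and 1149 with vehicle and 1112 and 1074 at baseline in OE19.

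When each set was entered into the edgeR fit as 1 guide, no set passed in N87, where the smallest adjusted p was 0.0692 for these 6 sets and 0.0582 for the 9 sets of OR4F4, OR4F5 and OR4F17. At an unadjusted p under 0.05 there were 5 of the 6 and 4 of the 9. In OE19, 3 of the 6 sets fell, with log2 fold changes of -1.90 ± 0.32 (SE, adjusted p = 0.0251) for HGLibA_42279, -1.10 ± 0.18 (adjusted p = 0.0220) for HGLibA_42280 and -1.09 ± 0.20 (adjusted p = 0.0340) for HGLibB_34948. Of the 9 sets, 1 fell, that of HGLibA_42284 in OR4F17 and OR4F4, by 0.85 on the log2 scale (adjusted p = 0.0249). That set had 196 and 202 normalized counts with vehicle in OE19, against 348 and 367 at baseline.

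The second comparison asked how the receptor guides behaved under lapatinib. In N87 their spread grew. The interquartile range of receptor levels was 2.71 and 2.16 log2 units with lapatinib, 1.31 and 1.39 with vehicle, and 1.33 and 1.30 at baseline. For control rows it was 2.00 and 1.75 with lapatinib, 1.14 and 1.11 with vehicle, and 1.09 and 1.10 at baseline. Both lapatinib libraries were wider than both vehicle libraries, for receptor and for control guides. In OE19 the receptor range was 1.67 and 1.46 with lapatinib, 1.43 and 1.38 with vehicle, and 1.34 and 1.31 at baseline. Receptor guides with no reads numbered 23 and 4 in the N87 lapatinib libraries, and between 0 and 8 in the other 10 libraries.

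Most receptor guides passed the test with lapatinib in N87, as did most guides of any kind. With edgeR's test 694 of 2242 receptor guides were higher and 659 were lower, which is 31.0% and 29.4%, and over all tested guides 31.2% were higher and 29.9% lower. Of control rows, 36.6% were higher and 15.7% lower. The receptor median fold was 0.04 and the control median 0.30, so receptor guides lay 0.26 below controls, with a difference of -0.36 to -0.22 over the 4 library pairings. The other gene-targeting guides differed from control by -0.35. Lapatinib and vehicle libraries did not overlap in their receptor minus control difference, with the exact permutation p again at its smallest value, 0.333. How many receptor guides rose and how many fell turned on the scaling, which set 51.3% of the called guides higher with TMM, 38.3% with TMM from control guides and 28.1% with total counts alone. Those scalings moved the median over all guides from -0.07 to -0.34 and -0.59, so directions are relative to the pool. Both lapatinib libraries lay above both vehicle libraries for 42.8% of receptor guides and below them for 41.2%, against 42.3% and 42.4% of all guides. For control rows these shares were 52.7% above and 29.1% below.

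Guides of the same receptor seldom moved together under lapatinib in N87. Of the 362 receptor genes with 6 tested guides, 278 (76.8%) had at least 1 guide called higher and at least 1 called lower, against 76.4% of 17349 other genes with 6 tested guides. All 6 guides shared 1 sign in 3.59% of receptor genes and in 3.80% of the other genes. Rank aggregation called 0 receptor genes in either direction, where 0 of all 20885 genes (0.0%) were higher and 3 (0.0144%) were lower. At least 4 guides were called higher in 21 receptor genes (5.80%) and lower in 22 (6.08%), against 8.70% and 7.48% of the other genes.

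OR13C8, at chr9:107331449-107332411, was the one receptor with all 6 guides called higher in N87 cells with lapatinib. Its highest guide by fold, HGLibB_34562, had 718 and 511 normalized counts with lapatinib against 127 and 142 with vehicle, and its lowest, HGLibA_41897, had 599 and 550 with lapatinib against 357 and 412 with vehicle. The gene median was 1.09 above control, with an SD of 0.56 over its 6 guides. OR5W2 and OR14A16 had 5 guides higher, with medians of 1.49 and 0.93 above control.

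On the other side, OR51B5, OR7A17 and OR10AD1 had 5 guides called lower each, with medians of -2.06, -1.94 and -1.54 relative to control. OR51B5, a class I receptor beside the beta-globin locus, and OR7A17 each also had 1 guide called higher. The guide HGLibA_42377 of OR51B5 had 219 and 240 normalized counts with lapatinib against 112 and 90.1 with vehicle, whereas its guide HGLibA_42375 had 19.8 and 22.8 with lapatinib against 104 and 87.6 with vehicle. None of these 6 genes passed by rank aggregation.

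The largest single gain in N87 was that of HGLibA_41751 of OR10A3. It had 4625 and 3296 normalized counts with lapatinib against 88.8 and 115 with vehicle, a 38.5-fold difference (log2 5.22 ± 0.32, SE, adjusted p = 2.06e-08), and was the most abundant receptor guide of both N87 lapatinib libraries. Next came guides of OR51F2, OR1L8, OR2V2 and OR10H5, with log2 fold changes of 3.87, 3.73, 3.71 and 3.68. The largest losses were in guides of OR6K6, OR2T29, OR52E2, OR51Q1 and OR5L1, with log2 fold changes of -4.42 to -3.57. These were thin guides, with 0 to 5 counts in each lapatinib library and 18 to 67 in each vehicle library. Lapatinib replicate 1 held 0 counts of all of them but OR2T29, and without lapatinib replicate 2 the fitted log2 values of these 4 guides ran from -8.48 to -7.32, so their sizes are not fixed by these counts. The losses of OR6K6 and OR2T29 missed the threshold without 1 vehicle library, OR6K6 without replicate 2 (adjusted p = 0.0575) and OR2T29 without replicate 1 (adjusted p = 0.0547). OR52E2 could not be tested without either vehicle library, nor OR51Q1 and OR5L1 without vehicle replicate 2, because fewer than 40 counts were left.

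In OE19 few receptor guides passed with lapatinib, and all of them were higher. Of 2232 tested, 46 (2.06%) were higher and 0 were lower, against 2.33% and 0.0795% of all guides, and 329 (14.7%) had an unadjusted p under 0.05, against 15.4% of all guides. DESeq2 called 2 lower, and the fit with the replicate block 1. Of control rows, 2.21% were higher. The 46 guides lay in 45 genes, so that no receptor gene had more than 2, and 4 of the rows were 1 of the OR4F sets. Rank aggregation called 0 receptor genes, where 20 of all 20890 genes (0.0957%) were higher and 0 (0.0%) lower. The receptor median fold was -0.05 and the control median -0.12, and the difference of 0.06 varied from 0.00 to 0.11 over the 4 library pairings. The receptor minus control levels of the 2 conditions overlapped, with an exact permutation p of 0.667. Lapatinib libraries both lay above the vehicle libraries for 19.4% of receptor guides and below them for 28.0%, against 23.9% and 24.1% of all guides. For control rows these shares were 15.0% above and 34.8% below. The count of higher guides fell when either vehicle library was left out and grew when either lapatinib library was left out. The shares of all guides called in those fits are not given here.

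A few receptor guides grew very large in OE19 cells with lapatinib. Gains above 20-fold were seen for 7 receptor guides of 7 genes, or 0.310% of receptor guides, for 0.350% of control rows (7 rows of 4 guides), and for 0.336% of other guides. The most abundant was HGLibB_35419 of OR7A5, with 11610 and 4055 normalized counts with lapatinib and 221 and 263 with vehicle. HGLibA_42780 of OR8B12 had 7435 and 2458 with lapatinib and 114 and 85.1 with vehicle, the highest receptor fold at 49.3 (log2 5.61 ± 0.83, SE, adjusted p = 0.00633). HGLibB_34777 of OR2L2 and HGLibA_42061 of OR2B6 rose 41.8-fold and 33.8-fold. In these 4 guides lapatinib replicate 1 held more than replicate 2, and none of the 4 passed when either vehicle library was left out. HGLibB_35343 of OR6C3 had 685 and 525 normalized counts with lapatinib and 6.64 and 26.1 with vehicle (adjusted p = 0.00337), and passed without each of the 4 libraries in turn. The 23 most abundant receptor guides of each library held 17.4% of the normalized receptor counts in lapatinib replicate 1 and 7.94% in lapatinib replicate 2, against 3.94% and 3.76% in the vehicle libraries. The OR10A3 guide that led in N87 was not among these 7.

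The OR4F copies stood higher with lapatinib than with vehicle in OE19. Of the 6 sets of OR4F3, OR4F16, OR4F21 and OR4F29, 5 were higher in both lapatinib libraries than in both vehicle libraries, and of the 9 sets of OR4F4, OR4F5 and OR4F17, 6 were, where this held for 23.9% of all guides. In the edgeR fit with summed sets 1 of each passed. The set of HGLibB_34948 had 3291 and 1159 normalized counts with lapatinib and 204 and 330 with vehicle (log2 3.04 ± 0.56, SE, adjusted p = 0.0158). The guide HGLibA_42299 of OR4F5 had 207 and 127 with lapatinib and 60.5 and 43.1 with vehicle (log2 1.64 ± 0.38, SE, adjusted p = 0.0431). This comparison shares its vehicle libraries with that of vehicle against baseline. In N87 with lapatinib 2 of the 6 sets were higher in both libraries and none were lower, while of the 9 sets 1 was higher and 6 were lower, beside 42.3% of all guides higher and 42.4% lower.

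Receptor medians were also taken by position along the genome, and an effect of position was not tested. Receptors less than 1 Mb apart were joined into clusters, and 17 clusters with at least 6 genes held 335 of the genes. During growth without drug the receptor median lay below control in 15 of 17 clusters in N87, from -0.05 to 0.02, and in 17 of 17 in OE19, from -0.21 to -0.04. The 52 class I genes differed from control by 0.00 in N87 and -0.08 in OE19, and the 324 class II genes by -0.04 and -0.15. With lapatinib the cluster medians ran from -0.75 to 0.15 in N87 and from -0.11 to 0.39 in OE19. Guides of other genes lying inside a cluster or within 1 Mb of it were used for comparison.

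The cluster at chr19:14900072-16061160, which holds 11 receptor genes such as OR7A5, OR7A17 and OR7C1, was the highest in OE19 with lapatinib. Its 66 guides had a median 0.39 above control, between 0.38 and 0.41 over the 4 library pairings, and 18.2% of them lay below the control median. The 60 other genes there had a median of 0.53. With vehicle against baseline these values were -0.15 for the receptors and -0.23 for the other genes. Over the 17 clusters, receptor medians and those of the neighbouring genes had r = 0.78 in OE19 with lapatinib and 0.27 in N87 with lapatinib. For vehicle against baseline r was 0.41 in OE19 and 0.36 in N87. These values describe points that share libraries and chromosome regions. The chr19 cluster was the highest in both sets of medians behind the 0.78, and no r without it is given here. In N87 with lapatinib the lowest cluster was that at chr17:2965963-3337135, at -0.75 for 10 receptors and -0.75 for 28 neighbouring genes, and the highest was that at chr9:107266544-107457743, at 0.15 for 8 receptors, OR13C8 among them, and -0.27 for 9 neighbouring genes.

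Receptors with a known odorant, or reported to act outside the nose, were followed by name. Of the 15 listed, 14 were in the table, with 84 guides. Over growth without drug 0 of the 84 guides were called in N87 and 0 in OE19, and the gene medians relative to control lay between -0.14 for OR51B4, reported in colon cancer cells, and 0.09 for OR7D4, the androstenone receptor, in N87. In OE19 they lay between -0.43 for OR5AN1, a musk receptor, and -0.01 for OR7D4. With lapatinib in N87, 28 of the 84 guides (33.3%) were called higher and 21 of the 84 lower, beside 31.2% and 29.9% of all guides. The lowest gene was OR1D2, a receptor also found on sperm, at -1.35, with 2 guides called higher and 3 lower, and the highest was OR6A2, a receptor for fatty aldehydes, at 0.43, with 4 higher and 1 lower. OR51E2, known from prostate, had -0.40 and OR51E1 had -0.93, with SDs over guides of 0.90 and 1.20. In OE19 with lapatinib 0 of the 84 guides were called, and gene medians lay between -0.35 for OR1D2 and 0.39 for OR5AN1.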

How the data were processed

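Raw counts per sgRNA were deposited by the authors as whole numbers for 12 libraries. The submitters' processing notes name FastQC 0.11.5 for read quality and Bowtie2 2.3.2 for mapping to the guide library. Their MAGeCK 0.5.6 scores were not used. Olfactory receptor members, gene lists and tests were chosen with earlier results of these data known.

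Within each comparison of 4 libraries, sgRNAs with at least 40 counts in all were tested with edgeR 4.0.16 (limma 3.58.1, R 4.3.3; glmQLFit and glmQLFTest, TMM, no block), with Benjamini-Hochberg adjustment over all tested sgRNAs at 0.05. Genes with at least 2 tested sgRNAs were ranked by robust rank aggregation over one-sided ranks below 0.05, adjusted over all genes. Medians use median-of-ratios scaling and a pseudocount of 1. DESeq2 1.42.0, Python 3.11.15, numpy 2.4.6, pandas 2.3.3 and scipy 1.17.1 were also used. Both tests were tried on simulated data.

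Positions are those of GENCODE v44 on GRCh37. OR8G2 and OR5R1 were placed through their current symbols. Rows were joined into sets by complete linkage at a mean chi-square under 3, a limit chosen after seeing the data. Named guides were, per comparison, the 5 higher and 5 lower called guides of largest fold with 1 sign in both same-numbered pairs. Named genes were those with at least 4 guides called 1 way (up to 6 per comparison), those called by rank aggregation and the 15 listed receptors. OR4K15, OR11H12, OR11H2, OR11H1, OR2M7 and the OR4F copies not called were chosen after their values were seen. Replicate differences of vehicle and baseline correlated at r = 0.24 in N87 and 0.07 in OE19 across guides, and those of lapatinib and vehicle at 0.06 and 0.03. Replicates are separate infections. Reads carry no molecular identifiers.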

Additional observations from a re-analysis of the deposited data

Results flagged for a closer look

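The receptor minus control difference had opposite signs in the 2 lines with lapatinib, but in OE19 it was not clear of 0. Every library pairing lay below 0 in N87, and in OE19 the pairings lay above 0, the lowest only barely. The differences from control were -0.26 in N87 and 0.06 in OE19, 0.32 apart, at doses that differ, and the difference between lines was not tested. The lowest OE19 pairing was 0.00. OE19 lapatinib and vehicle libraries overlapped in their receptor minus control difference, with an exact permutation p of 0.667. Other groups of guides had the same signs. The other gene-targeting guides differed from control by -0.35 in N87 and 0.12 in OE19. Taste receptor guides differed by -0.39 and 0.06, and keratin-associated protein guides by -0.48 and 0.21.

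The same opposite signs, again not tested between lines, were seen in some gene medians relative to control. Over all 376 receptor genes the medians of the 2 lines with lapatinib were nearly unrelated, with r = 0.02. OR10AD1 and OR7A17 were named for their guide calls in N87, a choice that favours a gap to OE19. OR10AD1 had -1.54 in N87 and 0.38 in OE19, 1.92 apart, and OR7A17 had -1.94 and 0.23, 2.17 apart. OR1A1 had -0.85 and 0.19 (1.04 apart), OR5AN1 -0.88 and 0.39 (1.27 apart) and OR51E2 -0.40 and 0.17 (0.57 apart). OR7D4 went the other way, with 0.35 in N87 and -0.10 in OE19, a difference of -0.45.

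Among single guides, HGLibA_42061 of OR2B6 had a log2 fold of -0.53 in N87 and 5.08 in OE19, 5.60 apart. HGLibB_35343 of OR6C3 had -2.32 and 5.12 (7.44 apart), and HGLibB_35278 of OR5L1 had -3.22 and 1.54 (4.76 apart). HGLibB_34854 of OR2V2 had 3.76 in N87 and -0.46 in OE19, a difference of -4.22. These guides were named for large changes in 1 line, which favours a gap to the other. Over all 2256 receptor guides the folds of the 2 lines had r = 0.01.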

How the results depend on the processing

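The share of receptor guides called, the difference from control guides and the number of receptor genes called kept within 1.5 times, or within the spread of replicates, in 184 of 236 recalculations, and 52 moved. No named guide reversed, and 13 of 172 recalculations of a named guide missed the threshold. Values in percent are shares of tested receptor guides, and the cause of a change was not tested. The shares of all guides called under the changed settings are not given here.

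For vehicle against baseline in N87, 0.0% were called either way, 0.222% were higher and 0.222% lower with the replicate block, and 0.0444% were lower with TMM from control guides. In OE19, 0.0445% were lower, and this was 0.8% with the replicate block (0.8% also higher), 0.756% with TMM from control guides, 0.225% with rows of one OR4F guide summed, 0.089% in half-library B, and 0.0% in half-library A or for receptors with a unique typical site. DESeq2 called 0.0445% higher. Receptor genes called in OE19 numbered 1 in place of 2 with the replicate block or DESeq2, and in N87 DESeq2 called OR4F21 and OR4F29 but not OR4F4. The summing of rows and the restriction to unique sites were chosen after seeing the data.

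For lapatinib against vehicle in N87, scaling by total counts gave 17.5% higher and 44.8% lower. In OE19, where none were lower, 0.314% were lower with total counts, 0.0443% without a filter, 0.0448% with the replicate block and 0.0896% with DESeq2. The difference from control was 0.0444 in half-library A. The replicate block also took the OR7A5 guide HGLibB_35419 to an adjusted p of 0.0955.

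Leaving out 1 library leaves 1 against 2, the lone library being assumed to vary like the others. In N87 with vehicle the shares then ran from 0.0% to 2.09% higher and from 0.0% to 1.2% lower, the difference from control from -0.053 to -0.031 and genes called from 0 to 2. In OE19 with vehicle they ran from 0.0% to 14.4% higher and 0.0% to 10.5% lower, the difference from -0.1825 to -0.1137 and genes from 0 to 1. In N87 with lapatinib the share lower ran from 16.2% to 34.3%. In OE19 with lapatinib the shares ran from 0.0452% to 7.37% higher and from 0.0% to 4.18% lower, and the difference from 0.0217 to 0.097. Restriction to genes with 6 sgRNAs changed nothing, as all had 6. Counts of 61 for the median receptor guide in OE19 lapatinib replicate 1 limit what can be seen of losses there.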
